A study of Mus musculus with 9 samples.

Results

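The regional identity transcription factors of the gut examined here are 7 genes, Gata4, Gata5, Gata6, Cdx1, Cdx2, Hnf4a and Hnf4g. They were picked by name, as factors that set small-intestinal against colonic identity in enterocytes, with earlier results of these data known. All 7 were found among the 46095 gene symbols of the count table, and all 7 were among the 14593 genes with enough counts to be tested. Their symbols are not shared with another row, and none is among the 27 symbols that a spreadsheet had turned into dates.

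Intestinal epithelium keeps a regional identity along its length, and that identity is held by transcription factors that bind the same enterocyte enhancers in different combinations. GATA4 is made in the duodenum and jejunum and is normally very low in the distal ileum and the colon, whereas GATA6 is made along the whole gut and GATA5 is found mainly in the small intestine. CDX2 is the homeodomain factor that gives the epithelium its intestinal rather than gastric character, CDX1 is its close relative, and the nuclear receptors HNF4A and HNF4G together drive the absorptive programme of the enterocyte.

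RNA-seq was performed on intestinal epithelial cells (IECs) released from the mouse colon with EDTA. One group of 4 libraries came from Smad4 Vil-KO mice (Smad4 F/F;Villin-Cre, labelled Smad4-knockout), called single-knockout below, and the other group of 5 libraries came from Smad4 Vil-KO;Setd2 Vil-KO mice (floxed at both genes with the same Villin-Cre, labelled Smad4-knockout;Setd2-knockout), called double-knockout below. The comparison asked what loss of Setd2, which encodes the enzyme that trimethylates lysine 36 of histone H3, adds to epithelium that already lacks Smad4, the common mediator of TGF-β and BMP signalling. Every mouse had been injected with azoxymethane (AOM, a colon carcinogen, 10 mg/kg) at 8 weeks of age, was given dextran sulphate sodium (DSS, which injures the colonic epithelium, 2%) and was killed 10 days into the AOM/DSS treatment. All were on a C57BL/6j background. Villin-Cre acts in the epithelium of both the small and the large intestine, so cells that are not epithelial keep both genes, and both groups carry the floxed Smad4 gene and both were treated. No library from mice without the Smad4 deletion was used here, so how far Smad4 was removed could not be judged. The sources used here do not say that each library was 1 mouse, so the p-values measure the spread between these libraries.

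The libraries held 12487129 to 17120202 counts, so that 1 count was worth 0.0594 to 0.0794 normalized counts (CPM, counts scaled to a common library size by the trimmed mean of M-values, TMM). Setd2, deleted in the double-knockout group only, was checked first. It measured 118.0, 120.1, 99.2 and 114 CPM in single-knockout replicates 1 to 4 and 57.8, 87.1, 55.7, 53.9 and 76.1 CPM in double-knockout replicates 1 to 5, so that the groups did not overlap. Setd2 fell by 0.77 on the log2 scale (SE 0.14, edgeR quasi-likelihood adjusted p = 0.00756). Smad4, floxed in both groups, measured 92.7, 54.3, 54.4 and 55.4 CPM in the single-knockout libraries and 60.1, 113.8, 38.2, 40.5 and 98.7 CPM in the double-knockout libraries (log2 fold change 0.13, SE 0.33, edgeR adjusted p = 0.819). This value is not steady, at -0.71 to 0.37 over 18 alternative analyses with 0 past the threshold, and at -0.70 (edgeR adjusted p = 0.0508) when double-knockout replicates 1, 2 and 5 were left out together. Double-knockout replicates 3 and 4 had the lowest Setd2 and Smad4 levels of all 9 libraries, and double-knockout replicate 2 had the highest Setd2 level of its group. The defining epithelial genes were high in both groups, with 0 of 10 called (0 to 2 over the alternatives), where 13.3% of all genes were called in either direction. Counts of 4 Y-linked genes were above 1000 in double-knockout replicates 1, 2 and 5 and at most 28 in the other libraries, so the genotypes also differed in Y-linked transcripts.

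The stretch of sequence just upstream of Hnf4a is shown because letters of the GATA binding motif, shared by the products of 3 of the 7 genes, can be read there. RefSeq gave promoter windows for 3 of the 7 genes on GRCm38.p6, and those of Gata5 and Cdx2 are not described here. Hnf4a has an upstream and a downstream promoter (P2 and P1), and counts per gene do not separate the transcripts that start at each. The sequence of the upstream one runs 5′ to 3′ along the gene's own strand, and capitals mark the motif match.
Hnf4a upstream promoter, chr2:163506607-163506810, plus strand: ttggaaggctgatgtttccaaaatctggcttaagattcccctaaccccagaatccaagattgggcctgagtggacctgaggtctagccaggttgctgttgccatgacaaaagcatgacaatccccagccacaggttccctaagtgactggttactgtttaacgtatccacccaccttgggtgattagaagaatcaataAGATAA
The capitals are AGATAA, one of the 2 GATA motifs searched (AGATAA and TGATAA), and the last 3 bases lie in the first exon. Both strands were searched, and the letters of the 3 kinds of motif searched do not overlap in this window. A GATA motif was present in 16.6% of 32851 RefSeq promoter windows, which were read over more bases than the 204 shown. The HNF4 letters searched (CAAAGTCCA and CAAAGGTCA) occur in 0.807% and the CDX letters (TTTATG and TTTACG) in 13.1% of the windows, and neither is in the sequence shown. The window given for the downstream promoter (chr2:163546943-163547154, plus strand) held 0 matches of the 3 kinds and is not printed. These matches describe letters only.

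Of the 7 factors, 1 rose in the double-knockout libraries, where 6.76% of all genes tested were called higher, and 0 fell, where 6.54% were called lower (edgeR quasi-likelihood test, Benjamini-Hochberg adjusted p under 0.05). The gene that rose was Gata4. It was also the only 1 of the 7 whose groups did not overlap, against 17.2% of all genes (8.34% with the double-knockout group above and 8.87% with it below). The median log2 fold change of the 7 was 0.13, and that of all genes tested was -0.0006.

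**Figure D1:**
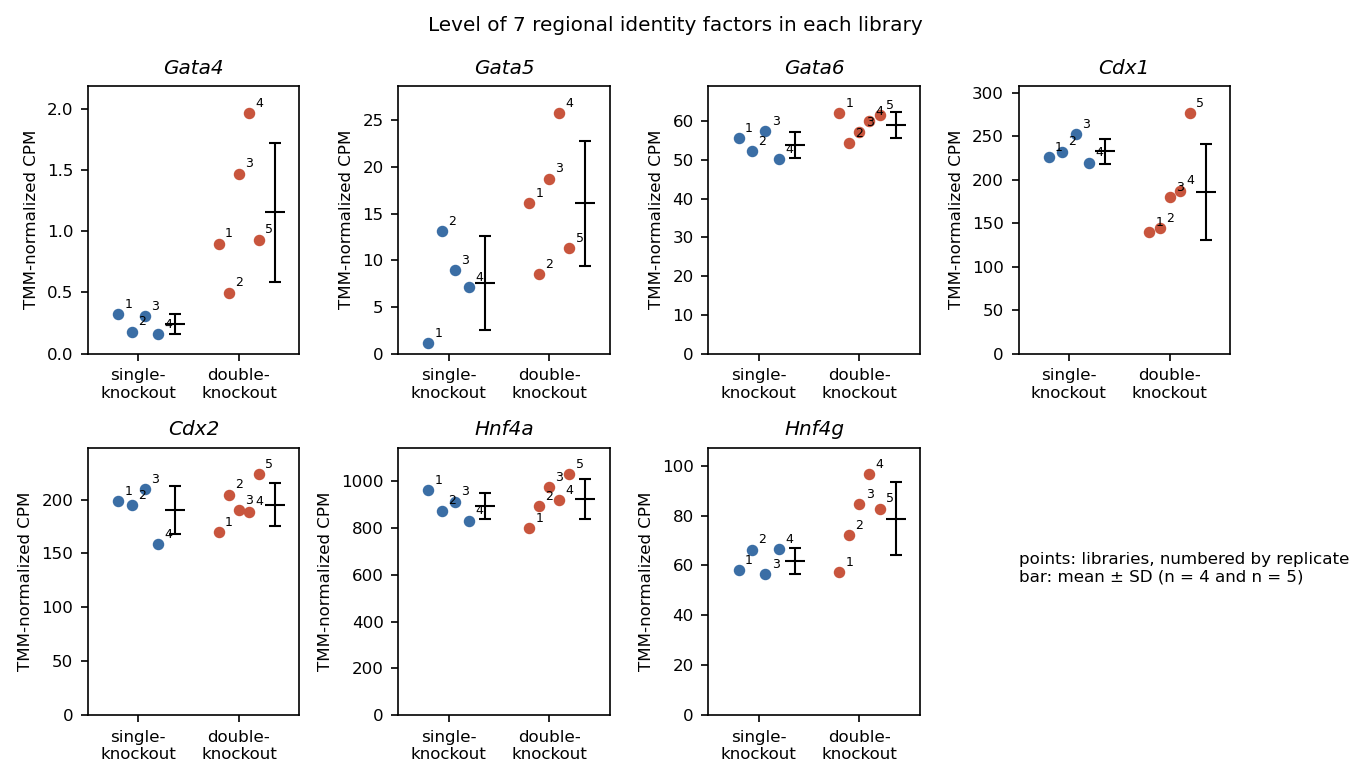
TMM-normalized CPM (linear axis from 0) of each of the 7 factors in the 4 single-knockout (blue) and 5 double-knockout (red) libraries, numbered by replicate, with the mean and SD of each group beside the points. Only Gata4 has groups that do not overlap, and the highest Gata4, Gata5 and Hnf4g points all belong to double-knockout replicate 4.

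Gata4 (ENSMUSG00000021944.15, GRCm38 chr14:63198922-63271692, minus strand), the factor of the proximal small intestine, was close to the detection limit in the single-knockout colon. It had 5, 3, 5 and 2 counts in single-knockout replicates 1 to 4 (0.321, 0.178, 0.307 and 0.159 CPM) and 14, 7, 21, 25 and 12 counts in double-knockout replicates 1 to 5 (0.897, 0.498, 1.47, 1.97 and 0.931 CPM). Every double-knockout library lay above every single-knockout library, and replicates 3 and 4 of the double-knockout group were the highest. The group means were 0.241 ± 0.0845 and 1.15 ± 0.571 CPM (± SD, n = 4 and n = 5), and Gata4 rose by 2.20 on the log2 scale (SE 0.47, 95% interval 1.15 to 3.24, edgeR adjusted p = 0.0144). In a tissue sampled in bulk, fewer or more cells that make a transcript and less or more of it per cell cannot be told apart. Summed over libraries there were 15 against 79 counts, a ratio of 4.64 after scaling (exact binomial 95% interval 2.65 to 8.68, counting error only). A floor of 3 counts corresponds to 0.178 to 0.238 CPM per library, so single-knockout replicates 2 and 4 were at or under it.

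The filter on low counts kept Gata4 through the double-knockout group, in which it is high. When double-knockout replicate 1, 3, 4 or 5 was left out, or when 10 counts were required in every library, Gata4 no longer passed that filter and had no value. With the genes kept as in all 9 libraries, the log2 fold change of Gata4 was 1.93 to 2.39 when each library was left out in turn, with an edgeR adjusted p between 0.0089 and 0.045. Among libraries with at most 28 Y-linked counts (called without Y-linked counts below), double-knockout replicates 3 and 4 against the 4 single-knockout libraries, it was 2.77 (edgeR adjusted p = 0.00374). Replicates 3 and 4 are the double-knockout libraries highest for Gata4, so this value is no separate evidence.

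Gata5 (ENSMUSG00000015627.5, chr2:180325133-180334699, minus strand) varied widely among libraries of the same genotype. It had 17, 221, 145 and 90 counts in the single-knockout libraries (1.09, 13.1, 8.91 and 7.15 CPM) and 251, 120, 268, 328 and 146 counts in the double-knockout libraries (16.1, 8.54, 18.7, 25.8 and 11.3 CPM). The groups overlapped because single-knockout replicate 2 exceeded double-knockout replicates 2 and 5 and single-knockout replicate 3 exceeded double-knockout replicate 2, and single-knockout replicate 1 was far below the rest. Means were 7.57 ± 5.0 and 16.1 ± 6.73 CPM, and the difference did not pass the test (log2 fold change 1.08, SE 0.52, 95% interval -0.06 to 2.23, adjusted p = 0.184). Without single-knockout replicate 1 the log2 fold change was 0.73 (edgeR adjusted p = 0.226). The antisense gene Gata5os, looked at after its values were seen, overlaps Gata5 and had 0 to 8 counts per library. Reads in the overlap cannot be told apart if strand was not used in the counting.

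Gata6 (ENSMUSG00000005836.10, chromosome 18), the member of the family that the colon normally makes, was the steadiest of the 3. It measured 55.7, 52.2, 57.5 and 50.2 CPM in the single-knockout libraries and 62.2, 54.3, 57.3, 59.9 and 61.6 CPM in the double-knockout libraries. The groups overlapped over a narrow range, and the means were 53.9 ± 3.31 and 59.0 ± 3.27 CPM (log2 fold change 0.13, SE 0.08, 95% interval -0.04 to 0.30, adjusted p = 0.268). The upper end of this interval, 0.30, is below the lower end of that of Gata4, 1.15. The Gata4 interval rests on few counts, and Gata4 passed the filter through the group in which it is high, so this contrast is a description only. Of the blood-lineage members, Gata2 was tested and was at 0.787 ± 0.347 and 0.603 ± 0.320 CPM (adjusted p = 0.651), while Gata1 and Gata3 had too few counts. The GATA cofactor gene Zfpm1 measured 4.39 ± 0.287 and 5.62 ± 1.62 CPM (adjusted p = 0.314).

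Per length of exon, the make-up of the GATA family could be set side by side. Gata6 accounted for 78.8% ± 12.1 (SD, n = 4) of the family's CPM per kilobase in single-knockout libraries and 64.7% ± 9.34 (SD, n = 5) in double-knockout libraries. Gata5 made up 20.6% ± 12.3 and 33.3% ± 8.70, and Gata4 0.595% ± 0.252 and 1.98% ± 0.701. Gata4 therefore stayed the least abundant of the 3 in all 9 libraries, also where it was called higher.

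Cdx2 (ENSMUSG00000029646.3, chr5:147300805-147307270, minus strand) showed no detectable change in mRNA. It measured 199, 195, 209.9 and 158 CPM in the single-knockout libraries and 170.04, 205, 190.03, 189 and 223 CPM in the double-knockout libraries. Of the 5 double-knockout values, 4 lay inside the range of the other group. Means were 190.3 ± 22.3 and 195 ± 19.9 CPM (log2 fold change 0.04, SE 0.10, 95% interval -0.19 to 0.26, adjusted p = 0.835). The sign of this difference is not fixed, since it turned in 5 of 18 alternative analyses. The paper reports a decrease of CDX2 protein staining in double-knockout mice given AOM/DSS, which is another measure than the mRNA read here.

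Cdx1 (ENSMUSG00000024619.8, chromosome 18), the partner of Cdx2 in crypt cells, had 1 library that stood against the other 4 of its group. It measured 226, 232, 252 and 219.5 CPM in the single-knockout libraries and 139, 144, 180.2, 187 and 277 CPM in double-knockout replicates 1 to 5. Replicates 1 to 4 of the double-knockout group lay below every single-knockout library, and replicate 5 lay above all of them. Means were 232 ± 14.1 and 186 ± 55.2 CPM, and the difference did not pass the test (log2 fold change -0.32, SE 0.18, 95% interval -0.71 to 0.06, adjusted p = 0.238). Without double-knockout replicate 5 the log2 fold change was -0.50 (SE 0.11, edgeR adjusted p = 0.0143), and it passed with no other single library left out. Replicate 5 is the library that goes the other way, so this omission is no separate evidence. Dixon's outlier test over the factors and the paralogue ratios flagged 0 of 20 groups. Within the libraries that lacked Y-linked counts, which also exclude replicate 5, the log2 fold change was -0.33 (SE 0.09, edgeR adjusted p = 0.0269).

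Hnf4a (ENSMUSG00000017950.16, chr2:163506808-163572910, plus strand) was the most abundant of the 7 factors in every library, also per kilobase of exon. It measured 961, 874, 914 and 832 CPM in the single-knockout libraries and 801, 893, 976, 919 and 1031 CPM in the double-knockout libraries. The double-knockout group held both the lowest and the highest library of the 9. Means were 895 ± 55.2 and 924 ± 86.9 CPM (log2 fold change 0.05, SE 0.09, 95% interval -0.16 to 0.25, adjusted p = 0.779). The antisense gene Hnf4aos had 1 count in 1 library and 0 in the others.

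Hnf4g (ENSMUSG00000017688.14, chr3:3508030-3658052, plus strand), the HNF4 paralogue that overlaps with Hnf4a in function in the enterocyte, was higher on average in the double-knockout libraries but did not pass the test. It measured 58.1, 66.4, 56.6 and 66.5 CPM in the single-knockout libraries and 57.4, 72.3, 84.7, 96.6 and 82.7 CPM in the double-knockout libraries. Replicates 2 to 5 of the double-knockout group lay above every single-knockout library, and replicate 1 lay among them. Means were 61.9 ± 5.28 and 78.7 ± 14.7 CPM (log2 fold change 0.35, SE 0.14, 95% interval 0.05 to 0.65, edgeR adjusted p = 0.114). Its unadjusted p in edgeR was 0.0268, and 30.6% of all genes tested had one under 0.05. Without double-knockout replicate 1 the log2 fold change of Hnf4g was 0.44 (edgeR adjusted p = 0.0238), and within the libraries that lacked Y-linked counts it was 0.55 (edgeR adjusted p = 0.00508). Both leave out replicate 1, the lowest of its group, so neither is separate evidence. Hnf4g passed with no other single library left out.

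Gata4, Gata5 and Hnf4g shared an order within the double-knockout group, which was noticed after their values were seen. Replicate 4 was highest and replicate 3 next for each of the 3 genes. Those libraries also had the lowest Setd2 and Smad4 levels and no appreciable Y-linked counts, so genotype completeness, sex and library cannot be told apart for this order. Cdx1, Cdx2 and Hnf4a followed another order, with replicate 5 highest and replicate 1 lowest for all 3.

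**Figure D2:**
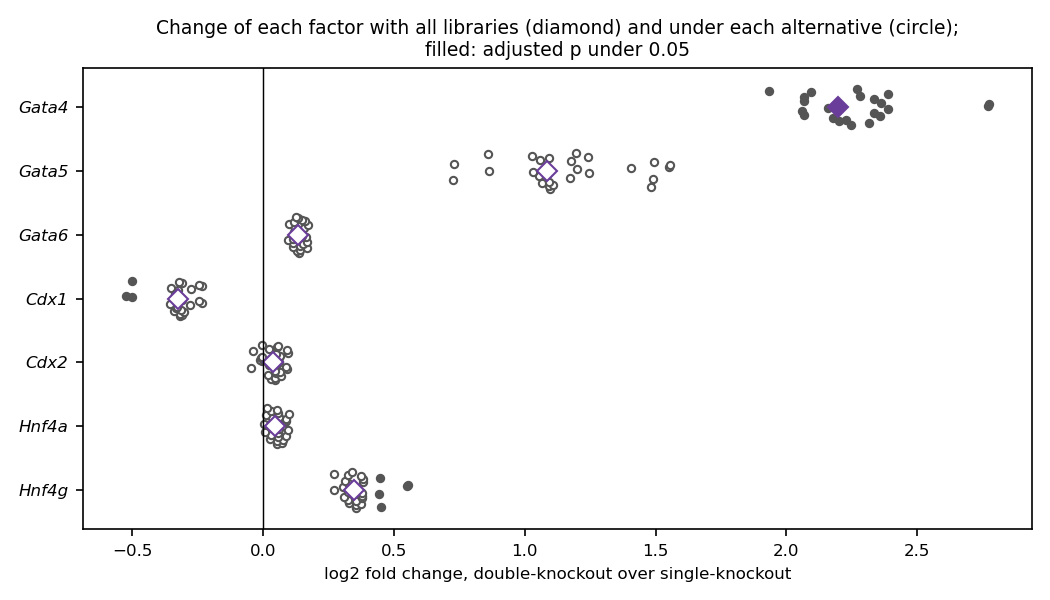
Log2 fold change (double-knockout over single-knockout) of each factor with all 9 libraries (diamond) and under each alternative analysis that gave a value (circles, 22 for Gata4 and 27 for each other gene, of which 9 repeat the omission of each library with the genes tested in all 9 libraries), filled where the adjusted p was under 0.05. Gata4 is filled wherever it had a value, at 1.93 to 2.77. It has no point where it failed the filter on low counts, which it passes only through the group in which it is high. Gata5 and Gata6 are open throughout, Cdx1 is filled in 4 and Hnf4g in 5 alternatives, and Cdx2 straddles 0.

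Levels were compared between genes as CPM per kilobase of exon. In the single-knockout libraries the order was Hnf4a (185 ± 11.4), Cdx1 (133 ± 8.06), Cdx2 (84.2 ± 9.85), Hnf4g (23.5 ± 2.01), Gata6 (8.28 ± 0.509), Gata5 (2.31 ± 1.52) and Gata4 (0.0618 ± 0.0216), with no overlap between neighbours in the 4 libraries. In the double-knockout libraries the order of the means was the same, at 191 ± 18, 106 ± 31.6, 86.4 ± 8.81, 29.9 ± 5.59, 9.07 ± 0.502, 4.91 ± 2.05 and 0.295 ± 0.146 CPM per kilobase. There the ranges of Cdx1 and Cdx2 overlapped, with Cdx1 above Cdx2 in 4 of 5 libraries. All other neighbours stayed apart.

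The balance within each family was then measured inside each library, as the log2 ratio of the counts of 2 paralogues, which does not depend on library size. These 3 ratios were tested by an exact two-sided permutation test over the 126 ways to divide 9 libraries into 4 and 5, whose smallest possible p is 0.0159, with adjustment over the 3. The ratio of Gata4 to Gata6 was -7.67 ± 0.36 in the single-knockout libraries and -5.78 ± 0.70 in the double-knockout libraries, a difference of 1.89 (exact permutation p = 0.0159, adjusted p = 0.0476). All 5 double-knockout libraries, at -6.67 to -4.90, lay above all 4 single-knockout libraries, at -7.98 to -7.30. Because Gata6 differed little between the groups, this ratio restates the Gata4 counts, of which the single-knockout libraries had 2 to 5 each, and is not separate evidence. The test cannot give a smaller p than this, and in 9 of 12 alternatives, most of them with a library fewer, the adjusted p was above 0.05.

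The ratio of Cdx1 to Cdx2 was 0.29 ± 0.12 in the single-knockout libraries and -0.11 ± 0.31 in the double-knockout libraries, a difference of -0.41 (exact permutation p = 0.0635, adjusted p = 0.0794). As plain ratios, single-knockout libraries had 1.14, 1.19, 1.20 and 1.39 Cdx1 counts per Cdx2 count. Double-knockout replicates 1 to 4 had 0.819, 0.705, 0.948 and 0.992, and replicate 5 had 1.24, inside the range of the other group. Without that replicate the log2 difference was -0.51 (exact permutation, adjusted p = 0.0429), and it passed with no other library left out. The ratio of Hnf4g to Hnf4a was -3.86 ± 0.20 and -3.57 ± 0.20, a difference of 0.29 that did not pass the test (exact permutation p = 0.0794, adjusted p = 0.0794). Without double-knockout replicate 1 the difference was 0.35 (exact permutation, adjusted p = 0.0429), and it passed with no other library left out. In both ratios the replicate left out is the one of its group nearest the single-knockout mean. Neither omission is therefore separate evidence. Hnf4g made up 11.3% ± 1.42 and 13.5% ± 1.69 of HNF4 transcripts per length.

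**Figure D3:**
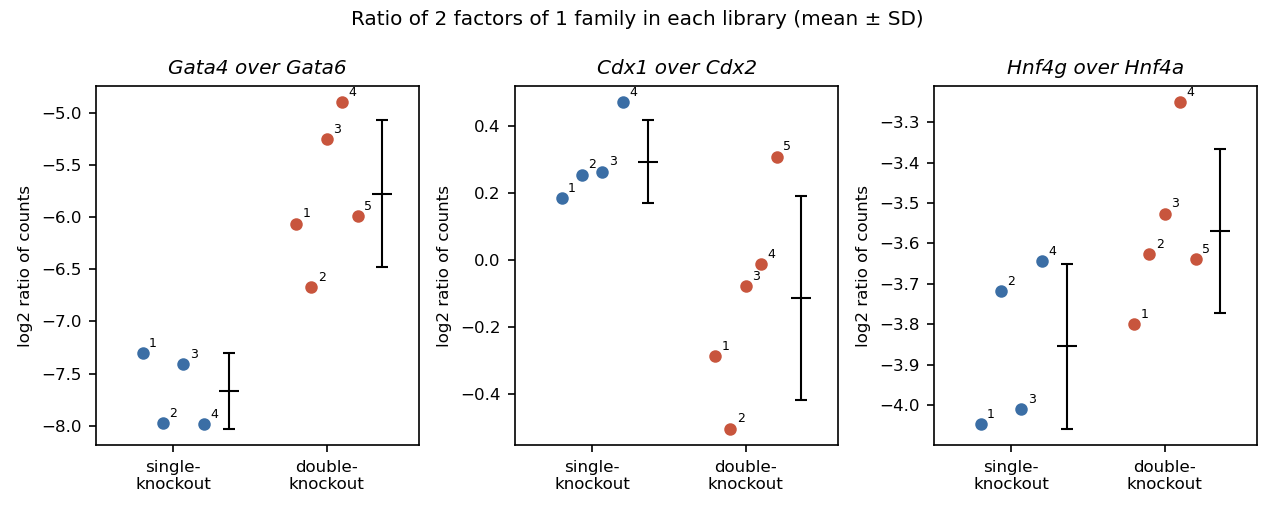
Log2 ratio of counts of Gata4 over Gata6, Cdx1 over Cdx2 and Hnf4g over Hnf4a in each library, numbered by replicate, for single-knockout (blue, n = 4) and double-knockout (red, n = 5), with mean and SD. The Gata4 to Gata6 points of the groups do not overlap, and double-knockout replicate 5 lies among the single-knockout points for Cdx1 over Cdx2.

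The 7 factors were set beside 27 other transcription factors of intestinal epithelium, of which 25 were tested. Among these, 3 rose and 2 fell (1 to 4 and 1 to 5 over the alternatives), beside 6.76% and 6.54% of all genes, and the median log2 fold change was -0.12. Creb3l3, a factor of lipid metabolism made mainly in the small intestine and liver, rose from 3.81 ± 0.941 to 23.1 ± 16.9 CPM (log2 fold change 2.60, adjusted p = 0.0187). Maf, a factor of small-intestinal enterocytes, rose from 1.79 ± 0.598 to 10.1 ± 7.06 CPM (2.50, adjusted p = 0.0103), and Pparg, a lipid-sensing nuclear receptor, from 69.9 ± 9.32 to 93.0 ± 10.1 CPM (0.41, adjusted p = 0.0316). Over 18 alternatives Creb3l3 passed in 14, Maf in 17 and Pparg in 12. The log2 fold change of Gata4, 2.20, lay below those of Creb3l3 and Maf by less than their standard errors (0.60 and 0.50).

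The 2 that fell were Foxa2 and Sox9. Foxa2, a pioneer factor of gut endoderm, measured 36.6 ± 3.54 and 22.9 ± 3.75 CPM with no overlap and fell by 0.67 on the log2 scale (adjusted p = 0.00737, past the threshold in 18 of 18 alternatives), and Sox9, a factor of crypt and Paneth cells, measured 75.0 ± 3.85 and 54.7 ± 10.8 CPM and fell by 0.46 (adjusted p = 0.0439, past the threshold in 9 of 18 alternatives). The gastric and duodenal factor genes Sox2 and Pdx1 were at 0 to 0.192 CPM and 0.285 to 1.55 CPM.

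**Figure D4:**
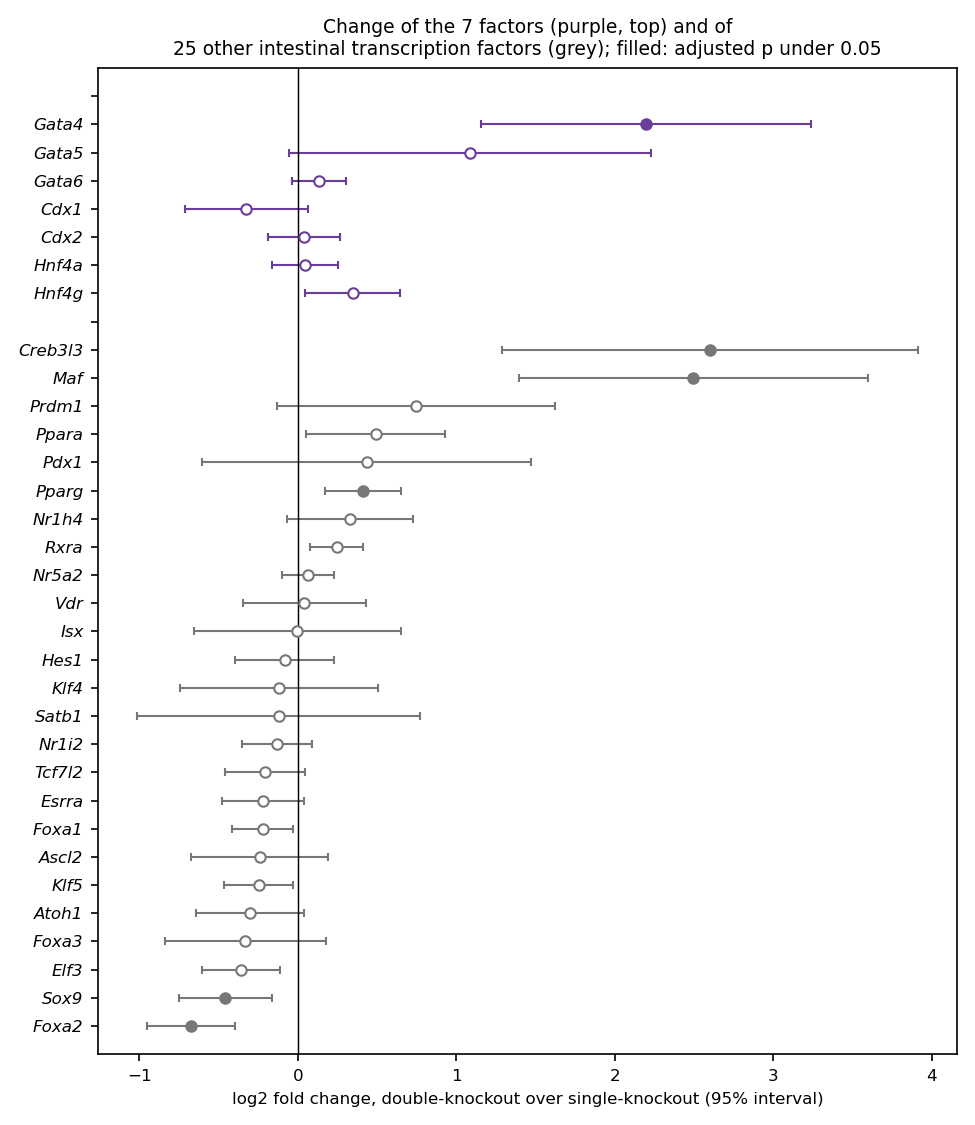
Log2 fold change with 95% interval (double-knockout over single-knockout) of the 7 factors (purple, top) and of 25 other intestinal transcription factors (grey), filled where the adjusted p was under 0.05. Gata4 at 2.20 lies beside Creb3l3 at 2.60 and Maf at 2.50, and the intervals of Gata6, Cdx2 and Hnf4a are narrow and include 0.

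Genes that the 7 factors are known to act on were read from hand-compiled lists, some of which share members, and which were drawn up with earlier results of these data known, so their counts and medians are descriptions. The list for GATA4 held only genes that it activates in the jejunum, and no list of genes that it represses was drawn up. Of 10 tested genes of this list, 8 rose and 2 fell, beside 6.76% and 6.54% of all genes, with a median log2 fold change of 2.58. Of these 10, 4 (Apoa1, Npc1l1, Fabp1 and Cubn) had under 10 counts in some or all single-knockout libraries, so that passing the filter rested mainly on the double-knockout group. Abcg5, which exports plant sterols and cholesterol, rose from 8.53 ± 0.778 to 30.7 ± 14.7 CPM (1.84, edgeR adjusted p = 0.00508). Fabp1, which encodes a fatty acid binding protein, was at 0 to 0.178 CPM in the single-knockout libraries, at or under the floor of 3 counts, and at 2.02 to 7.16 CPM in the double-knockout libraries. Adh1 and Slc5a9 were the 2 that fell, by 1.10 and 0.87 on the log2 scale (adjusted p = 0.0222 and 0.0140). Because Adh1 dominates the list at 1104 ± 226 and 516 ± 182 CPM, the summed CPM of the list went the other way, from 903 to 1406 in the single-knockout libraries to 536 to 848 in the double-knockout libraries. Apoa1, an apolipoprotein gene, had 0 counts in all single-knockout libraries and 0.155 to 39.2 CPM in the double-knockout libraries, the lowest of which is under a floor of 3 counts. The median is the same with Apoa1 at the bound that this floor sets for the group mean.

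Of 16 tested genes activated by HNF4, 5 rose and 0 fell (2 to 6 and 0 to 1 over the alternatives), beside the same shares of all genes, with a median of 0.13. The 5 were Apoa1, Mttp, Fabp1, Creb3l3 and Otc, of which Apoa1 and Fabp1 passed the filter through the double-knockout group. Mttp, which loads lipid onto apolipoprotein B, rose from 4.41 ± 1.39 to 102 ± 45.4 CPM (4.53, adjusted p = 0.000285). The other 11 included brush-border genes such as Cdhr2 (702 ± 44.5 and 671 ± 81.5 CPM, adjusted p = 0.707). Of 13 tested genes activated by CDX2, 1 rose and 1 fell (0 to 4 and 1 to 2 over the alternatives), with a median of 0.07, beside 6.76% and 6.54% of all genes. This list includes Cdx1 and Hnf4a, which are themselves among the 7 factors. Sis, the sucrase-isomaltase gene, rose from 2.78 ± 3.23 to 155 ± 85.5 CPM (5.75, adjusted p = 0.000985), with under 10 counts in some single-knockout libraries. Muc2, the main colonic mucin, fell by 1.62 on the log2 scale (adjusted p = 0.000542).

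Genes that mark regions of the gut were counted in the same way, from lists likewise drawn up with earlier results known, and these counts are no independent evidence of a direction. Of 19 tested small-intestinal enterocyte genes 14 rose and 0 fell (median 1.69), of 6 ileal bile acid genes 5 rose and 0 fell (median 2.59), and of 16 colonic epithelial genes 0 rose and 3 fell (median -0.34), where 6.76% of all genes were called higher and 6.54% lower. The 3 that fell were Hoxb13, Muc2 and Slc37a2. Slc10a2, the bile acid importer of the ileum, rose from 18.5 ± 9.45 to 204 ± 90.5 CPM (3.46, edgeR adjusted p = 0.00141), and Slc51a, a subunit of the bile acid exporter, from 10.3 ± 6.01 to 52.5 ± 17.0 CPM (2.34, edgeR adjusted p = 0.00509). Fgf15, the ileal hormone that reports bile acids to the liver, was at 0 to 0.832 CPM and 1.92 to 23.4 CPM. Fgf15 in the ileal list, and Sis, Apoa1 and Fabp1 in the small-intestinal one, had under 10 counts in some or all single-knockout libraries. Over the alternatives 9 to 16 small-intestinal, 4 to 5 ileal and 4 to 9 of the GATA4-activated genes were called higher. In the same alternatives 1 to 6 colonic and 0 to 2 of the GATA4-activated genes were called lower. Summed CPM of the small-intestinal list was 1474 to 1754 in the single-knockout libraries and 2169 to 3600 in the double-knockout libraries. Double-knockout replicate 4 was highest for both Gata4 and this sum, whereas replicate 2 had the second highest sum and the lowest Gata4 of its group.

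**Figure D5:**
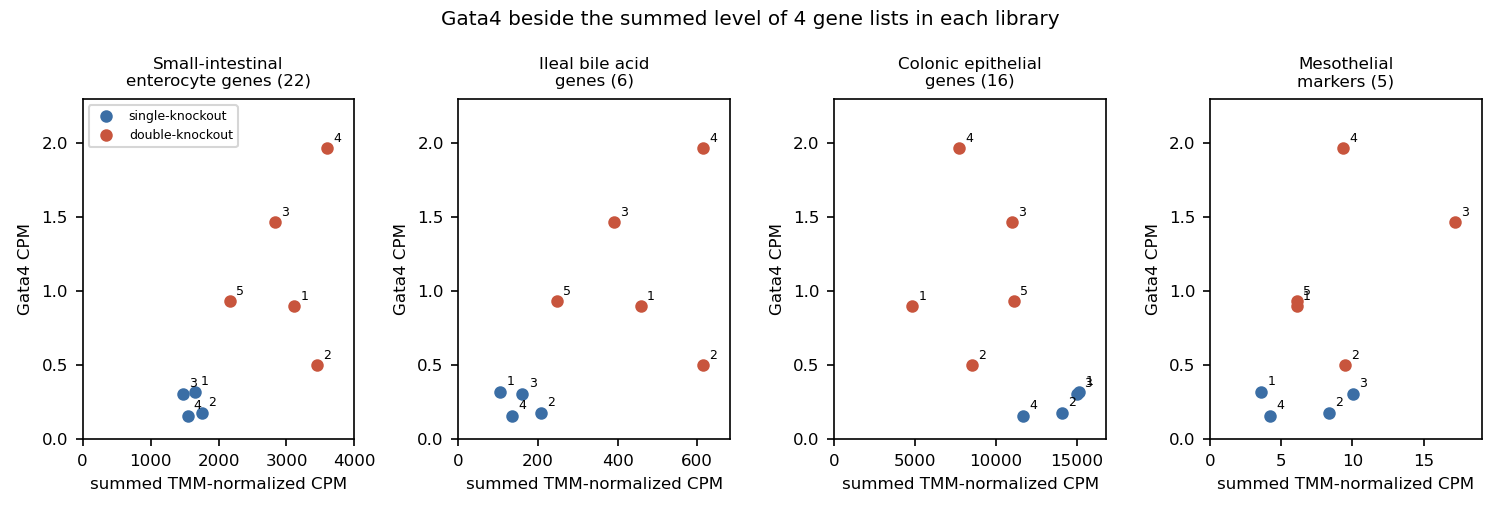
Gata4 CPM (vertical axis) against the summed CPM of 22 small-intestinal enterocyte genes, 6 ileal bile acid genes, 16 colonic epithelial genes and 5 mesothelial markers in each library, single-knockout in blue and double-knockout in red, numbered by replicate. The groups are apart on the first 3 horizontal axes and overlap on the mesothelial one, where double-knockout replicate 3 is highest at 17.2 CPM.

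Gata4, Gata5 and Gata6 are also made by cells outside the epithelium, such as mesothelium and smooth muscle, so markers of other cell types were read beside them. With 13.3% of all genes called in either direction, 0 calls among a few tested markers says little. Of 5 mesothelial markers 3 were tested and 0 were called (0 to 1 over the alternatives), all 3 with a positive log2 fold change (median 0.80), with summed levels of 3.59 to 10.01 CPM in the single-knockout libraries and 6.09 to 17.2 CPM in the double-knockout libraries. Of these, Lrrn4 was at 1.25 ± 0.597 and 2.88 ± 0.956 CPM with no overlap (log2 fold change 1.19, edgeR adjusted p = 0.0544). Lrrn4 and Upk3b had under 10 counts in some single-knockout libraries. Wt1, not tested, was at 0.369 ± 0.358 and 0.539 ± 0.421 CPM. Of 10 fibroblast and smooth muscle markers 4 were tested and 0 were called, with sums of 12.2 to 29.3 and 19.8 to 59.3 CPM and a positive log2 fold change in 3 of the 4 (median 0.61). The fibroblast genes Dcn and Col3a1 measured 6.73 ± 3.69 and 17.2 ± 8.38 CPM (1.35, edgeR adjusted p = 0.0766) and 5.47 ± 1.89 and 9.39 ± 4.84 CPM (0.78, edgeR adjusted p = 0.156). Pdgfra, not tested, was at 0.167 ± 0.0897 and 1.19 ± 1.17 CPM, and Col1a1 went the other way (log2 fold change -0.31, edgeR adjusted p = 0.651). The muscle genes Acta2, Des, Myh11 and Tagln had too few counts to be tested, at or under 1.66 CPM in every library, and of these Acta2 was lower in the double-knockout libraries with no overlap (1.25 ± 0.469 and 0.279 ± 0.186 CPM). Of 7 endothelial markers 2 were tested and 0 called (8.84 to 9.82 and 7.04 to 11.01 CPM), and of 10 leukocyte markers 10 were tested and 0 called (72.4 to 182 and 58.8 to 133 CPM). The part of these cells in the Gata4 and Gata5 differences was not tested.

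Most markers of neighbouring organs were low, with Cela1 the clearest exception, and the counts called stand beside 6.76% of all genes higher and 6.54% lower. Of 7 gastric markers 1 was tested and 0 were called, with Gkn1, Gkn2, Muc5ac and Tff1 at 0 to 0.128 CPM. Of 7 pancreatic acinar markers 6 were at 0 in all libraries, and the remaining one, Cela1, measured 192 ± 28.6 and 96.9 ± 22.1 CPM and fell by 0.99 on the log2 scale (edgeR adjusted p = 0.00347). Of 6 hepatocyte markers 3 were tested and 0 called, with sums of 19.4 to 34.2 and 12.8 to 31.2 CPM. Of 7 glial and neuronal markers 2 were tested, and Elavl4 was at 0.363 ± 0.136 and 2.13 ± 0.713 CPM, with under 10 counts in every single-knockout library, so that it passed the filter through the double-knockout group. Sox10 was at 0 throughout. Of 10 stem and cycling crypt genes 1, Olfm4, rose, from 1.48 ± 1.09 to 53.1 ± 43.0 CPM (5.14, edgeR adjusted p = 0.00568), with under 10 counts in some single-knockout libraries, and Lgr5 measured 36.8 ± 13.4 and 23.3 ± 7.20 CPM (adjusted p = 0.136).

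The genes whose pattern was most like that of each factor were sought among 13700 genes at 1 CPM or more, by Pearson's correlation of log2 CPM over the 9 libraries after each genotype's mean had been taken off. The points share their libraries and depths, and with 9 points high values arise among many genes, so the correlations are a description. Nearest to Gata4 were Gm11963 (0.97), Enox2 (0.97) and Lrrc51 (0.97), and nearest to Gata5 were 2410016O06Rik (0.99), Gins3 (0.95) and Ptpn6 (0.95). Gata6 lay nearest to Rpl3 (0.96), Dohh (0.95) and Tarbp2 (0.95). Nearest to Cdx1 were Dedd (0.99), Sec22b (0.99) and Zfp622 (0.99), and nearest to Cdx2 were Ppp1r13b (0.97), Tmem180 (0.96) and Lynx1 (0.96). Hnf4a lay nearest to Slc25a3 (0.99), Cgref1 (0.99) and Mpst (0.98), and Hnf4g to Rps15a-ps4 (0.99), Saa1 (0.98) and Hltf (0.97).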

How the data were processed

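IEC RNA from 4 Smad4 Vil-KO (single-knockout) and 5 Smad4 Vil-KO;Setd2 Vil-KO (double-knockout) libraries was analysed, grouped by the genotype in the sample labels. The authors deposited 1 table of raw counts per gene symbol. The submitters' processing notes name HISAT2 2.0 and mm10, and the counting program and the use of strand are not given in the sources used here. Genes were filtered with filterByExpr by genotype (14593 kept), normalized by TMM and tested with edgeR 4.0.16 (R 4.3.3) glmQLFit and glmQLFTest, with Benjamini-Hochberg adjustment over all genes. Paralogue ratios (0.5 added to each count) were tested by exact permutation with SciPy 1.17.1. Alternatives used DESeq2 1.42.0, limma 3.58.1 voom, other scaling and filters, a replicate block, a term for Y-linked counts and libraries left out. Some genes are not reported here. Scripts were tested on simulated data. The members and gene lists were chosen with earlier results of these data known. Named genes were the 7 factors, Setd2, Smad4 and, for each factor, the 3 genes most like it. From the lists came some members that passed the test or had the 2 largest changes in each direction. Other list members, tested or not, were named where their levels stand beside a result. Gata5os was added after its values were seen. Gene positions and exon lengths are from GENCODE M21. Intervals cover counting error only where stated. The biological coefficient of variation was 21.2%.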

Additional observations from a re-analysis of the deposited data

How the results depend on the processing

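Gata4 was at 1.93 to 2.77 (adjusted p 0.00328 to 0.0467) in the 22 alternatives that gave a value, and had none in the other 5, where it failed the filter; 9 of the 22 leave out 1 library each and keep the genes tested in all 9, and since Gata4 passes only through the group in which it is high, this is no sign of stability. Gata5 (0.73 to 1.55), Gata6 (0.0950 to 0.17) and Hnf4a (0.00148 to 0.0987) stayed positive without passing in all 27. The number of factors called higher was 2 with limma-voom (Gata4 and Hnf4g), 0 with at least 10 counts in every library, 2 with a term for Y-linked counts and 2 in libraries without Y-linked counts, and 0 to 2 when each library was left out. The number called lower was 1 with the replicate block and 1 in libraries without Y-linked counts, both Cdx1, and 0 to 1 when each library was left out. Genes changed between genotypes numbered 1941, against 2927 with limma-voom, 2792 with DESeq2, 1285 with a term for Y-linked counts, 2930 in libraries without Y-linked counts and 836 to 2711 when each library was left out. The replicate numbers did not pair the libraries: deviations of same-numbered libraries correlated at -0.0955, -0.104, 0.0196 and 0.0878. With the replicate block, 1618 genes were called, Cdx1 changed by -0.52 (adjusted p = 0.0282), Gata4 by 2.16 (adjusted p = 0.0332) and Cdx2 by -0.01. Cdx2 turned sign at -0.0104 with the block, -0.00691 with the Y term, -0.00276 without Y-linked libraries, and within -0.045 to 0.0940 when each library was left out. Leaving out a library and keeping the genes tested in all 9 was chosen after seeing the data. Gata4 over Gata6 could not pass, whatever its value, in libraries without Y-linked counts (2.59, smallest possible p 0.133) or over pairs by number, as a paired block (1.95, smallest possible p 0.125), and ranged from 1.67 to 2.12 when each library was left out. Cdx1 over Cdx2 ranged from -0.51 to -0.31 and Hnf4g over Hnf4a from 0.21 to 0.36 in the same way. The causes of these shifts were not tested. Gata4 rests on 2 to 25 counts per library, which limits its precision.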
